A study of Mus musculus with 12 samples.

Results

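Citric acid cycle enzyme genes were followed across 4 groups of mouse bone marrow-derived dendritic cells (BMDCs). The 9 genes, chosen by symbol among the 55335 genes of every expression table, were Cs, Idh3a, Idh3b, Idh3g, Ogdh, Sucla2, Suclg1, Fh1 and Mdh2. Each symbol matched a single gene in each of the 12 libraries, and all 9 genes passed the filter on low counts that left 14008 genes for testing. In BMDCs that had lost CTCF, 6 of the 9 genes were expressed at a higher level than in WT BMDCs at rest and none at a lower level, with Idh3a showing the largest difference among them. Of all genes tested, 22.2% were called higher and 22.4% lower in this comparison. After LPS, the higher level remained detectable in 2 of the 6 genes, Suclg1 and Fh1, and Ogdh was lower than in WT BMDCs. The shares of all genes tested were then 21.4% higher and 23.3% lower.

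The citric acid cycle runs in the mitochondrial matrix, where acetyl groups from sugar, fat and amino acid breakdown are oxidized and the electrons are handed to the respiratory chain. In dendritic cells and macrophages, stimulation with LPS, a bacterial cell wall component sensed by TLR4, is known to shift energy metabolism toward glycolysis and to draw citrate out of the cycle for fatty acid synthesis and for itaconate. The enzymes are encoded by nuclear genes, and several of them are complexes whose subunits come from separate genes.

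RNA-seq was carried out on CD11c+ BMDCs grown with GM-CSF for 6 days from C57BL/6 mice that were 8 to 12 weeks old and of both sexes. WT was unstimulated cells of CreER mice and WTL the same genotype given LPS for 3 h at a dose of 100 ng/ml. KO was unstimulated cells of CreER;CTCF fl/fl mice and KOL the same genotype stimulated with LPS at the same dose and time. Each group had 3 replicates. All 4 groups carried the CreER transgene, which is driven from the ubiquitous Rosa26 locus, so the deletion of Ctcf, which encodes a zinc-finger protein that shapes chromatin loops, was not limited to dendritic cells. It was induced with 4-OH tamoxifen on the first day of culture only, and the wording of the study leaves unclear whether WT cultures received the agent. If they did not, its effect cannot be told apart from that of the deletion. The study calls the 3 replicates of each group biological, and the labels do not say which mouse or culture each library came from.

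Total expected counts were 12769773 to 16586334 per library. Values called normalized counts below are counts brought to a common library size after TMM scaling. The normalized count of Ctcf was 974.9 to 1051 in WT, 745.3 to 886.1 in WTL, 516.0 to 569.7 in KO and 526.4 to 563.5 in KOL, and no KO or KOL library reached the lowest WT or WTL library. The gene-level count does not separate the deleted exons from the rest of the transcript, so what remained in KO cannot be read as intact transcript. WTL replicate 2 and KOL replicate 2 stood apart from the other 2 libraries of their groups. The chi-square per degree of freedom between libraries was 81.9 and 77.1 for the pairs with WTL replicate 2 against 29.6 for the remaining pair, and 28.7 and 30.1 for the pairs with KOL replicate 2 against 8.49. It was 3.27 to 4.65 in WT and 1.69 to 1.90 in KO. All 6 dendritic cell markers (Itgax, Flt3, Cd74, H2-Ab1, Ccr7 and Zbtb46) were detected in every group, with summed normalized counts of 85910 to 90140 in WT, 81650 to 83310 in KO, 119900 to 166300 in WTL and 147900 to 204100 in KOL. In KO against WT, Itgax was higher (log2 fold change 0.84), and Flt3 (-2.00), H2-Ab1 (-0.76) and Ccr7 (-0.62) were lower. Markers of B cells, T cells and erythroid cells were at or near 0, with summed normalized counts of at most 26.58. The summed normalized count of 6 monocyte and macrophage markers (Csf1r, Adgre1, Mertk, Fcgr1, Ly6c2 and Itgam) was 24700 to 26340 in WT, 34710 to 35840 in KO, 15440 to 22080 in WTL and 12790 to 18310 in KOL. The list did not move in 1 direction in KO against WT, since Csf1r (0.73) and Ly6c2 (1.72) were higher, Adgre1 (-0.81), Mertk (-1.16) and Fcgr1 (-1.93) were lower, and Itgam had a log2 fold change of 0.02. For 5 neutrophil markers it was 107.3 to 138.3 in WT, 10.77 to 15.75 in KO, 207.7 to 333.9 in WTL and 55.52 to 70.97 in KOL. Of the neutrophil markers, 3 of 5 had at most 3 counts in every KO library. For 3 mast cell markers (Kit, Cpa3 and Mcpt8) the sum was 147.0 to 170.3 in WT, 39.83 to 62.8 in KO, 93.06 to 130.8 in WTL and 139.8 to 175.5 in KOL, nearly all of it from Kit, which was lower in KO than in WT (-1.51). The part of these shifts in the results on the cycle genes was not tested. In bulk samples, a change in the number of cells of a type cannot be told apart from a change in RNA per cell.

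The promoter sequences of 4 genes are shown here because these genes differed in their response: Mdh2, Fh1 and Suclg1 were higher in KO, and Sucla2 passed the main test in no comparison. They cover 250 bases before to 50 bases after a RefSeq transcription start site of GRCm38.p6, which has the primary sequence of mm10, and are printed from 5′ to 3′ on the strand of the gene. The windows are chr5:135778399-135778698 on the plus strand for Mdh2, chr1:175625586-175625885 on the minus strand for Fh1, chr6:73248255-73248554 on the plus strand for Suclg1 and chr14:73552536-73552835 on the plus strand for Sucla2. The window of Sucla2 lies inside the gene as annotated in GENCODE (chr14:73525319-73596142) and not at its first base. Capitals mark the palindrome CTCGCGAG in Mdh2 and the letters ATGGCGG, found in sites of the factor YY1, in Sucla2. In Sucla2 these letters begin at base 23 after the start site and not before it. They open with ATG, the letters of a start codon, and whether they are coding sequence was not tested.
Mdh2: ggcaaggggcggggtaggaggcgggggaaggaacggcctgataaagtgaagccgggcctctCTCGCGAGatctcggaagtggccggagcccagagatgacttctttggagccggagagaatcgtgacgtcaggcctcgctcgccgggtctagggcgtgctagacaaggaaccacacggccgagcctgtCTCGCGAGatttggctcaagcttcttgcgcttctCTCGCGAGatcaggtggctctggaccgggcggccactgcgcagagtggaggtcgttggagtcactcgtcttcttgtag
Fh1: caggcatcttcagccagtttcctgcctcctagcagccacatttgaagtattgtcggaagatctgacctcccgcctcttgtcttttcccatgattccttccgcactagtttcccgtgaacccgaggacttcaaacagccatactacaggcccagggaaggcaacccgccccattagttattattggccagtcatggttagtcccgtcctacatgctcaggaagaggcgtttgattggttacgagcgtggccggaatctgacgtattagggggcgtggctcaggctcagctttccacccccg
Suclg1: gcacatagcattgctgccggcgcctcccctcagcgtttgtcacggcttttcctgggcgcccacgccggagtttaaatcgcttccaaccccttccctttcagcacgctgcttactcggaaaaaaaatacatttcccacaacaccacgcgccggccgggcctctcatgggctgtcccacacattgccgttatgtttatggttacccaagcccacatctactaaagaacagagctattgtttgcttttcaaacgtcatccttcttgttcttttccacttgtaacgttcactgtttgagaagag
Sucla2: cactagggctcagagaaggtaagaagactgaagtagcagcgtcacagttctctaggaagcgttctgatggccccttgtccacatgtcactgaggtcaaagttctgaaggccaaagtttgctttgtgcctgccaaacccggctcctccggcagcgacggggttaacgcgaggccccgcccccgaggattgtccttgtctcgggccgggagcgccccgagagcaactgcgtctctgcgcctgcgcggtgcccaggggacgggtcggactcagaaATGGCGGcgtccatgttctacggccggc

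RefSeq promoter windows were present for 8 of the 9 genes, without Idh3a. They were searched on both strands for CGCATGCG (NRF1), CCGGAAG (ETS family), TCAAGGTCA (estrogen-related receptors), ATGGCGG (YY1) and CTCGCGAG, letters that were chosen with these promoters in view. Mdh2 held CTCGCGAG at 3 places, with the first base at -189, -62 and -28 from the start site, whereas 0.919% of all 32851 promoter windows held it at all. Ogdh held CGCATGCG and ATGGCGG, which occurred in 1.87% and 4.05% of all windows, in 2 overlapping windows of neighbouring start sites. Idh3g held ATGGCGG and CCGGAAG, and Idh3b held CCGGAAG, which occurred in 8.86% of all windows. No window of Cs, Suclg1 or Fh1 held any of these letters, and TCAAGGTCA (0.423% of all windows) was found in none of the 8 genes. The genes without a match (Cs, Suclg1 and Fh1) were all called higher in KO. Of the genes with a match, Mdh2 and Ogdh were called higher, and Idh3b, Idh3g and Sucla2 were not called. A link between these letters and the calls was not tested.

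On a scale per transcript length (TPM), the genes of the cycle spanned a wide range of levels. In WT, Mdh2, which encodes the mitochondrial malate dehydrogenase that closes the cycle, had the highest level, 158.2 ± 8.09 TPM (SD, n = 3), at the 94.6th percentile of the genes tested. Cs, encoding citrate synthase, which opens the cycle, followed at 107.9 ± 2.18 TPM, and then Idh3b at 87.9 ± 4.76 and Idh3g at 84.7 ± 2.28 TPM, which overlapped. Suclg1 at 54.2 ± 4.71 and Ogdh at 48.5 ± 2.11 TPM also overlapped, and Sucla2 was at 40.3 ± 3.59 TPM. Idh3a at 25.3 ± 2.43 and Fh1 at 22.8 ± 2.03 TPM overlapped at the bottom, the latter at the 66.6th percentile. In KO the order was the same and only Sucla2 and Idh3a overlapped as neighbours. After LPS, Idh3a had the lowest level of the 9 genes in both genotypes, 15.3 ± 1.36 TPM in WTL and 15.4 ± 0.35 TPM in KOL.

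**Figure D1:**
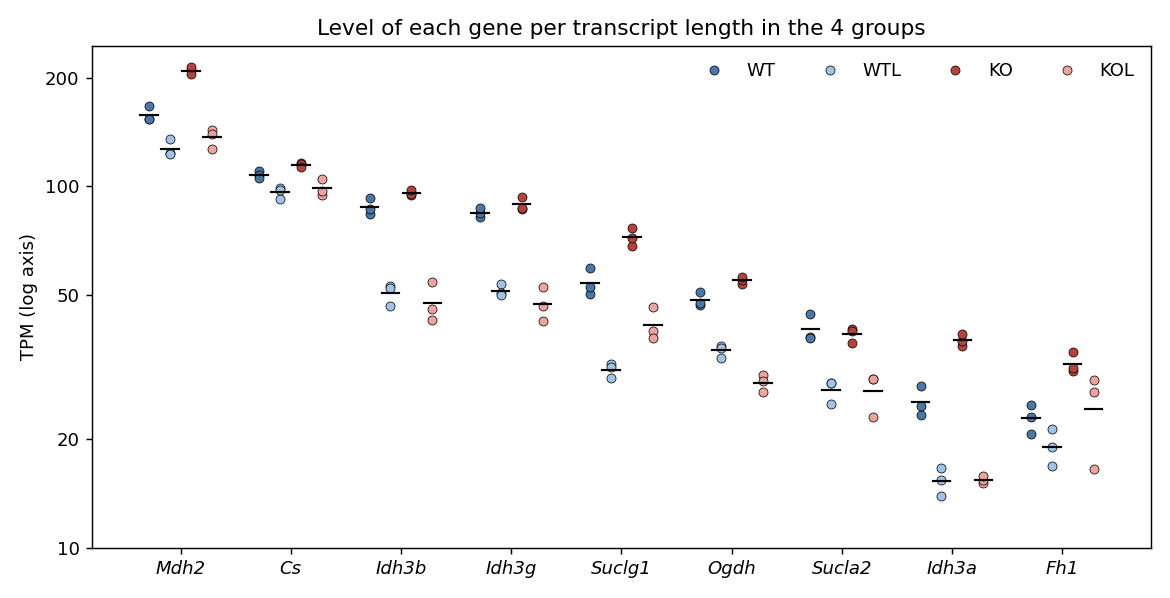
Level of the 9 genes in TPM on a log axis, ordered by the WT mean, with a point per library (3 per group) and a line at the group mean for WT, WTL, KO and KOL. Mdh2 was the highest of the 9 in every group (158.2, 127.3, 209.2 and 136.7 TPM on average). The KO points lie above the WT points for every gene but Idh3g and Sucla2.

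TPM is a share of each library, and its total is the same whatever else the cells express. The summed TPM of the 9 genes was 629.7 ± 11.6 in WT, 745.3 ± 5.31 in KO, 454.0 ± 17.5 in WTL and 467.5 ± 12.4 in KOL. The summed normalized count was 11130 ± 254.2 in WT, 13810 ± 182.5 in KO, 11910 ± 272.3 in WTL and 12140 ± 45.8 in KOL. Both scales placed KO above WT in every library, by contrast with the LPS groups, whose sums were below WT in TPM and above it in normalized counts. The TMM scaling factors were 1.12 to 1.22 in the unstimulated libraries and 0.82 to 0.88 in the stimulated ones. On unscaled log2(TPM + 1), the median of all genes moved by -0.44 between WT and WTL and by -0.38 between KO and KOL, and changes after LPS are given relative to the other genes unless stated.

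The comparison of KO with WT addresses the difference between the genotypes in unstimulated BMDCs. Of the 9 genes, 6 were higher in KO and 0 were lower, where 22.2% of all genes tested were called higher and 22.4% lower. The median log2 fold change was 0.28 over the 9 genes and -0.01 over all genes tested. The KO and WT libraries did not overlap in 8 of the 9 genes, all with KO above WT, where 31.9% of all genes tested had every KO library above WT and 32.3% every KO library below it. With the 1.3-fold cutoff that the study used for this comparison, 4 genes remained (Idh3a, Suclg1, Fh1 and Mdh2), all higher, where 17.3% of all genes passed as higher and 17.2% as lower.

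Cs (chr10:128337734-128362479, plus strand), which joins acetyl-CoA and oxaloacetate into citrate, had normalized counts of 3038, 3056 and 3034 in WT and 3532, 3440 and 3432 in KO. All KO libraries were above the WT libraries, and the difference was modest, with a log2 fold change of 0.19 (SE 0.06 and adjusted p = 0.014).

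Mitochondrial isocitrate dehydrogenase, which releases the first carbon dioxide of the cycle and passes electrons to NAD, is built from a catalytic subunit encoded by Idh3a and from subunits encoded by Idh3b and Idh3g. Idh3a (chr9:54586334-54604661, plus strand) had normalized counts of 540.1, 478.0 and 525.5 in WT and 821.8, 829.5 and 865.2 in KO. No KO library came near the WT range, and the log2 fold change of 0.71 (SE 0.08 and adjusted p = 5.7e-06) corresponded to a level 63.0% above WT. Idh3b (chr2:130279309-130284547, minus strand, sharing 5 exonic bases with Nop56) had 1177, 1321 and 1245 in WT and 1428, 1417 and 1428 in KO. These libraries also did not overlap, but the difference did not pass the test (log2 fold change 0.19, 95% confidence interval -0.01 to 0.40, adjusted p = 0.12). Idh3g (chrX:73778963-73786897, minus strand) had 907.6, 914.9 and 966.3 in WT and 1034, 1098 and 1067 in KO, and lay at the threshold with a log2 fold change of 0.20 (adjusted p = 0.0501).

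Ogdh (chr11:6291633-6356642, plus strand) encodes the decarboxylating component of the 2-oxoglutarate dehydrogenase complex. Its normalized counts were 1756, 1942 and 1787 in WT and 2156, 2181 and 2303 in KO, without overlap, and it rose by a log2 fold change of 0.28 (SE 0.07 and adjusted p = 0.0065).

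Succinyl-CoA ligase, the enzyme that forms ATP or GTP within the cycle, pairs the shared alpha subunit encoded by Suclg1 with a beta subunit encoded by Sucla2 (ADP-forming) or Suclg2 (GDP-forming). Suclg1 (chr6:73248382-73276911, plus strand) had normalized counts of 693.5, 634.8 and 625.7 in WT and 950.1, 850.7 and 871.7 in KO, with a log2 fold change of 0.45 (SE 0.07 and adjusted p = 0.00018). Sucla2 (chr14:73525319-73596142, plus strand), its partner, had 646.7, 580.3 and 577.3 in WT and 649.6, 596.2 and 587.3 in KO. The groups overlapped, and the log2 fold change was 0.02 with a 95% confidence interval of -0.21 to 0.26, so that a difference as large as that of Suclg1 lay outside the interval.

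Fh1 and Mdh2 encode the enzymes of the last steps, fumarase, which hydrates fumarate to malate, and malate dehydrogenase, which oxidizes malate to oxaloacetate. Fh1 (chr1:175600374-175625635, minus strand) had normalized counts of 493.3, 530.8 and 470.2 in WT and 747.4, 701.8 and 770.7 in KO, a log2 fold change of 0.57 (SE 0.08 and adjusted p = 6.2e-05). Mdh2 (chr5:135778480-135790398, plus strand) had 1718, 1958 and 1763 in WT and 2610, 2486 and 2572 in KO, a log2 fold change of 0.50 (SE 0.08 and adjusted p = 8.6e-05). The KO libraries of both genes were all above the WT libraries, by 48.6% for Fh1 and 40.9% for Mdh2 on average.

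**Figure D2:**
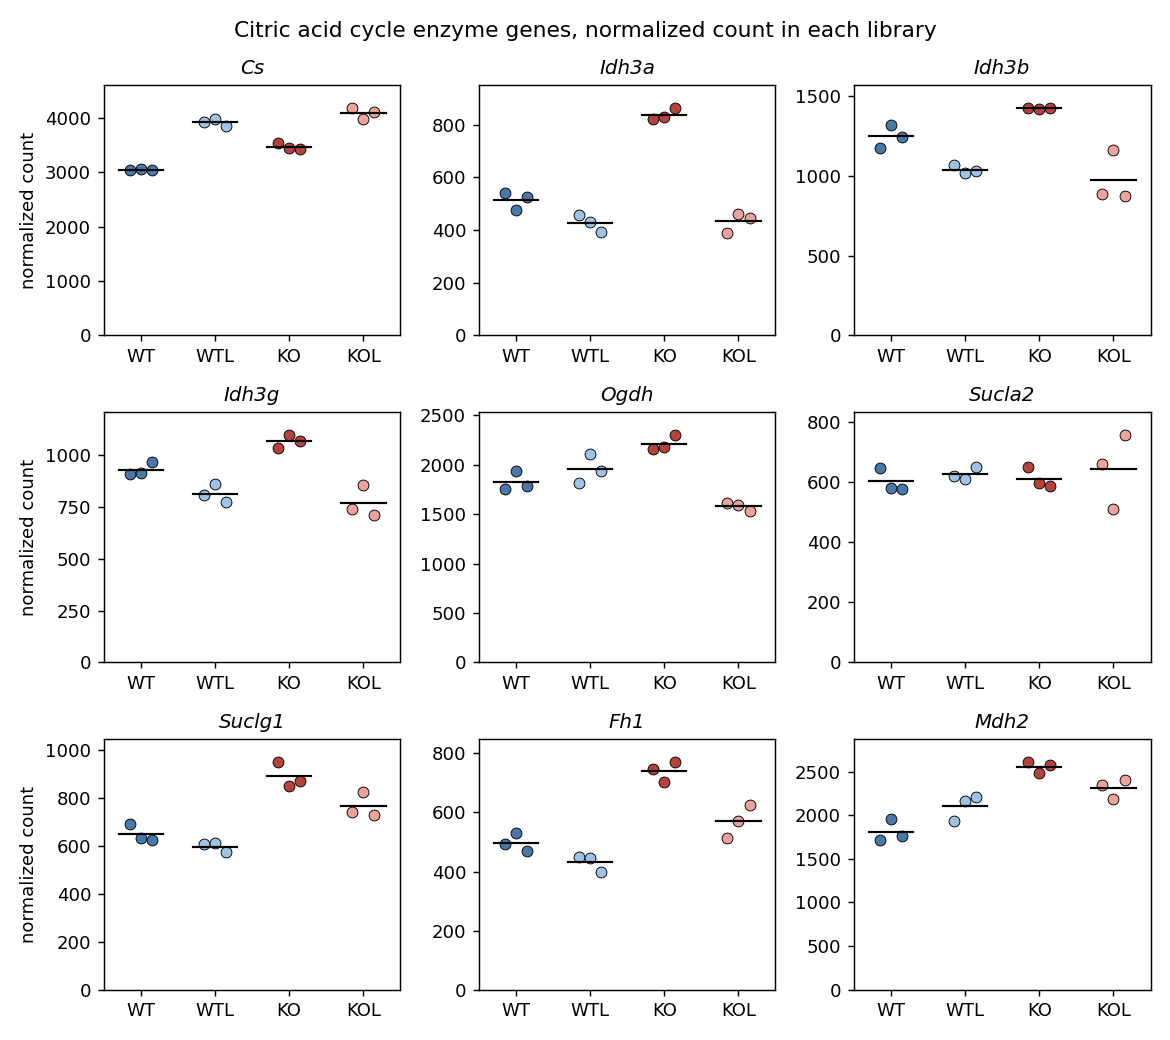
Normalized count of each of the 9 genes in every library, with a panel per gene, axes from 0, a point per library (3 per group, side by side) and a line at the mean of WT, WTL, KO and KOL. The KO points are above the WT points for every gene but Sucla2, and for Idh3a the KOL points (390.3 to 461.0) overlap the range of WTL (392.3 to 457.2).

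Idh3a, Suclg1 and Mdh2 kept their call in KO against WT under all 22 alternatives, including limma on log2(TPM + 1), which called these 3 genes only. On that scale Fh1 had a log2 fold change of 0.49 (adjusted p = 0.051) and Ogdh of 0.18 (adjusted p = 0.054). Cs lost its call without any 1 of the 3 WT replicates or without KO replicate 1 (log2 fold change 0.15 to 0.18, adjusted p = 0.061 to 0.10). Ogdh lost it without WT replicate 1 (0.21, adjusted p = 0.063) or WT replicate 3 (0.23, adjusted p = 0.057). The median of all genes was -0.05 or -0.04 without any 1 WT replicate, against -0.01 with all libraries. Without KOL replicate 2, which stood apart and shares the estimate of the spread, 8 of the 9 genes were called, Idh3b and Idh3g being added with an adjusted p of 0.018 each. Over all genes, 3493 of 14378 were then called higher and 3480 lower, against 3110 and 3131 of 14008 with all libraries. Idh3g was also called without KOL replicate 3 (adjusted p = 0.042) or WTL replicate 1 (adjusted p = 0.044).

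The comparison of WTL with WT addresses the response of WT BMDCs to LPS. The 9 genes moved in both directions and by little: 2 were higher (Cs and Mdh2) and 4 lower (Idh3a, Idh3b, Idh3g and Fh1), where 30.0% of all genes tested were called higher and 30.2% lower. No gene passed the 2-fold cutoff of the study, which 12.6% of all genes passed as higher and 9.99% as lower. The median log2 fold change was -0.12 over the 9 genes and -0.02 over all genes tested. The WTL and WT libraries did not overlap in 6 genes, with Cs above WT and the 3 Idh3 genes, Suclg1 and Fh1 below it, where 31.8% of all genes had every WTL library above WT and 33.3% every WTL library below it.

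Cs had normalized counts of 3934, 3978 and 3862 in WTL, all above the WT libraries, and rose by a log2 fold change of 0.37 (SE 0.06 and adjusted p = 6.1e-05), or 29.0%. Mdh2 had 1938, 2158 and 2208 in WTL (log2 fold change 0.21, SE 0.08, adjusted p = 0.024), and its lowest WTL library was below the highest WT library. The 3 genes of isocitrate dehydrogenase fell together. Idh3a had 457.2, 430.1 and 392.3 in WTL (log2 fold change -0.27, SE 0.08, adjusted p = 0.012), Idh3b 1067, 1018 and 1032 (-0.26, SE 0.10, adjusted p = 0.029) and Idh3g 807.8, 862.3 and 774.1 (-0.19, SE 0.08, adjusted p = 0.0484). None of these WTL libraries overlapped with WT. Fh1 had 449.1, 445.2 and 399.8 in WTL (log2 fold change -0.21, SE 0.09, adjusted p = 0.0495), also below all WT libraries. Ogdh (1819, 2112 and 1933 in WTL, log2 fold change 0.10), Sucla2 (620.4, 609.9 and 648.6, log2 fold change 0.06) and Suclg1 (606.9, 611.0 and 574.2, log2 fold change -0.12) did not pass the test.

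The call of Cs was kept with each library left out in turn, and the other 5 calls were not. Idh3a lost its call without WTL replicate 3 (-0.22, adjusted p = 0.057), and Idh3b without WTL replicate 2 (-0.25, adjusted p = 0.08) or replicate 3 (-0.26, adjusted p = 0.063). Idh3g lost it without any 1 of KO replicates 1 to 3, KOL replicate 1 and WTL replicates 1 and 3 (-0.19 to -0.16, adjusted p = 0.055 to 0.15). Fh1 lost it without any 1 of KO replicates 1 to 3, WT replicate 2 and WTL replicates 2 and 3 (-0.24 to -0.16, adjusted p = 0.054 to 0.18), and Mdh2 without any 1 of WT replicates 1 to 3 and WTL replicates 2 and 3 (0.10 to 0.20, adjusted p = 0.06 to 0.35). Suclg1 was called lower without WT replicate 3 (-0.23, adjusted p = 0.042). Without any 1 WT replicate the median of all genes was -0.1 or -0.09 in this comparison, against -0.02 with all libraries. The scale also mattered: with limma on unscaled log2(TPM + 1), 0 genes were higher and 8 lower, with Cs at -0.16 and Mdh2 at -0.31, a shift smaller than the -0.44 of the median gene. As shares of the library the 2 genes thus fell, and relative to the median gene they were higher.

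In KO BMDCs the response to LPS was mostly downward. Between KO and KOL, 1 gene was higher (Cs) and 6 were lower (Idh3a, Idh3b, Idh3g, Ogdh, Suclg1 and Fh1), where 33.6% of all genes tested were called higher and 33.9% lower. The median log2 fold change was -0.38 over the 9 genes and -0.02 over all genes tested, and no gene passed the 2-fold cutoff, which 15.1% of all genes passed as higher and 13.0% as lower. The 8 genes other than Sucla2 had KO and KOL libraries that did not overlap, where 36.3% of all genes had every KOL library below KO and 34.9% every KOL library above it.

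Idh3a had normalized counts of 390.3, 461.0 and 447.4 in KOL and fell below every KO library (log2 fold change -0.95, SE 0.08, adjusted p = 1.3e-07), a level 0.516 times that of KO. Its partners fell less, Idh3b to 888.2, 1164 and 871.3 (-0.55, SE 0.10, adjusted p = 0.00017) and Idh3g to 742.0, 855.3 and 711.1 (-0.47, SE 0.08, adjusted p = 9.8e-05). In both partners KOL replicate 2 was the highest KOL library. Ogdh fell to 1617, 1592 and 1535 (-0.48, SE 0.07, adjusted p = 3.8e-05), below every library of the other 3 groups. Suclg1 had 739.8, 824.9 and 729.3 in KOL (-0.22, SE 0.07, adjusted p = 0.017) and Fh1 512.9, 572.1 and 624.6 (-0.38, SE 0.08, adjusted p = 0.0011). Cs rose to 4190, 3980 and 4105 (0.24, SE 0.06, adjusted p = 0.0018), above all libraries of WT and KO. Mdh2 had 2349, 2189 and 2402 in KOL (log2 fold change -0.14, 95% confidence interval -0.30 to 0.02, adjusted p = 0.10), and Sucla2 had 660.3, 511.3 and 756.0 (0.07, adjusted p = 0.57). The call of Suclg1 was lost without KO replicate 1 (-0.18, adjusted p = 0.085), KOL replicate 1 (-0.20, adjusted p = 0.061) or KOL replicate 3 (-0.19, adjusted p = 0.067). Without KOL replicate 2, Sucla2 was called higher (0.21, adjusted p = 0.033). On unscaled log2(TPM + 1), where the median gene moved by -0.38, 2245 of 13435 genes were called higher and 6935 lower. All 9 genes were called lower on that scale, and Cs had a value of -0.22.

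**Figure D3:**
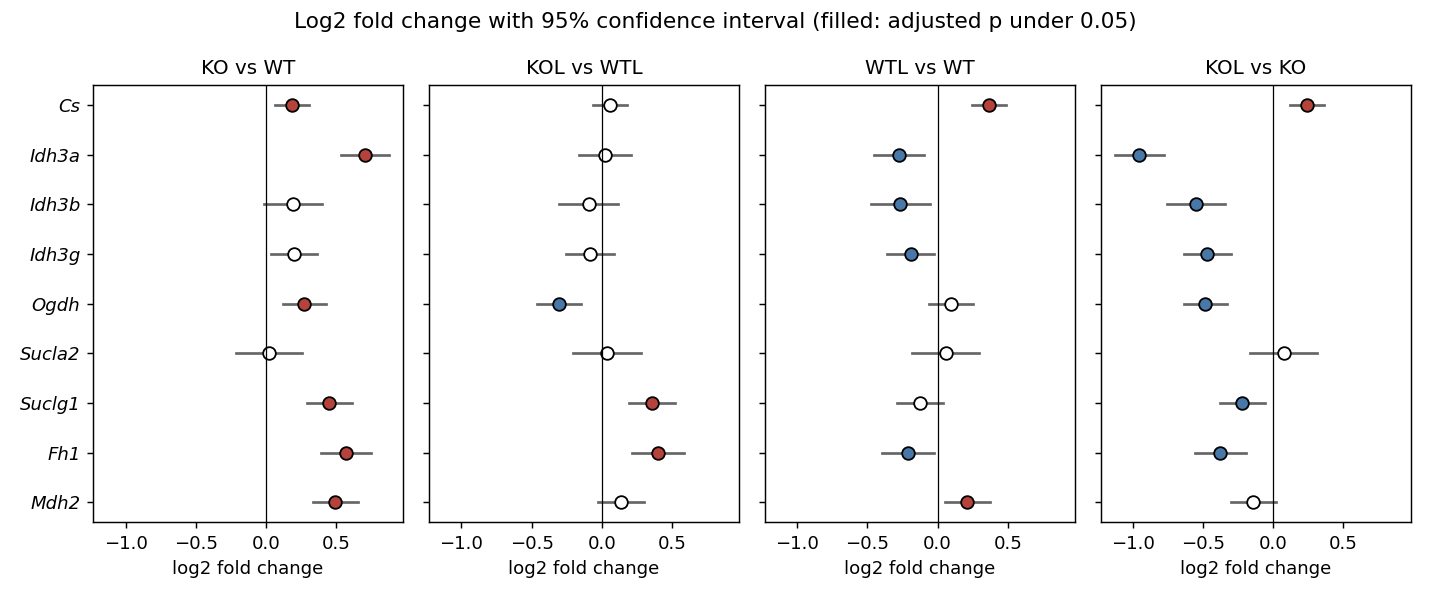
Log2 fold change of the 9 genes (x axis) with its 95% confidence interval in KO vs WT, KOL vs WTL, WTL vs WT and KOL vs KO, with filled points for an adjusted p under 0.05 (red higher, blue lower) and open points otherwise. In KO vs WT all 9 points are above 0 and 6 are filled, whereas in KOL vs WTL only Suclg1 and Fh1 (higher) and Ogdh (lower) are filled. Of the 14008 genes tested, 6808 were above 0 in KO vs WT and 22.2% were called higher.

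KOL was compared with WTL for the difference between the genotypes after LPS. Of the 9 genes, 2 were higher in KOL (Suclg1 and Fh1) and 1 was lower (Ogdh), where 21.4% of all genes tested were called higher and 23.3% lower, and none passed the 1.5-fold cutoff of the study for this comparison, which 12.5% of all genes passed in each direction. Suclg1 was higher in KOL with a log2 fold change of 0.36 (SE 0.08 and adjusted p = 0.0016) and kept this call in all 22 alternatives. Fh1 was higher with a log2 fold change of 0.40 (SE 0.09 and adjusted p = 0.0017), which did not pass with limma on log2(TPM + 1) (0.30, adjusted p = 0.23). Ogdh was lower with a log2 fold change of -0.31 (SE 0.07 and adjusted p = 0.0034), its KOL libraries (at most 1617) all being below WTL (at least 1819). In edgeR fitted to these 6 libraries alone its adjusted p was 0.052. Idh3a, the gene with the largest difference at rest among the 9, had a log2 fold change of 0.02 (95% confidence interval -0.16 to 0.21), and the KOL and WTL libraries overlapped. Mdh2 (0.14, adjusted p = 0.15), Cs (0.06, adjusted p = 0.42), Idh3b (-0.09, adjusted p = 0.47), Idh3g (-0.08, adjusted p = 0.42) and Sucla2 (0.04, adjusted p = 0.81) did not pass the test. Without KOL replicate 2, Idh3b was called lower (-0.24, adjusted p = 0.012).

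Whether the response to LPS differed between the genotypes was tested with the interaction, the log2 fold change of KOL over KO minus that of WTL over WT. It was below 0 in 8 of the 9 genes, where 6765 of the 14008 genes tested were above 0. The test was passed in 3 of the 9, all lower in KO, where 8.75% of all genes tested were called lower and 8.70% higher. For Idh3a the response was -0.27 in WT and -0.95 in KO, a difference of -0.68 (SE 0.12, adjusted p = 0.0012). For Ogdh it was 0.10 in WT and -0.48 in KO, a difference of -0.58 (SE 0.10, adjusted p = 0.0015). For Mdh2 it was 0.21 in WT and -0.14 in KO, a difference of -0.36 (SE 0.11, adjusted p = 0.032). Idh3a and Ogdh kept this call in all 21 alternatives, whereas Mdh2 kept it in 8 of 21, being lost without any 1 of WT replicates 1 to 3, KO replicates 1 to 3, KOL replicate 1 and WTL replicates 2 and 3 (-0.38 to -0.25, adjusted p = 0.055 to 0.18). The median interaction of all genes was 0.05 without any 1 WT replicate, against -0.02 with all libraries. Idh3b (-0.28, adjusted p = 0.18) and Idh3g (-0.28, adjusted p = 0.099) did not pass, and each passed in 1 of 21 alternatives, without KOL replicate 2 (-0.43, adjusted p = 0.004 and -0.36, adjusted p = 0.013). The other 4 genes had interactions of -0.13 (Cs), -0.10 (Suclg1), -0.17 (Fh1) and 0.01 (Sucla2), with adjusted p of 0.30 to 0.97. All these comparisons share their groups, so the rise in KO at rest and the steeper fall after LPS rest in part on the same KO libraries.

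**Figure D4:**
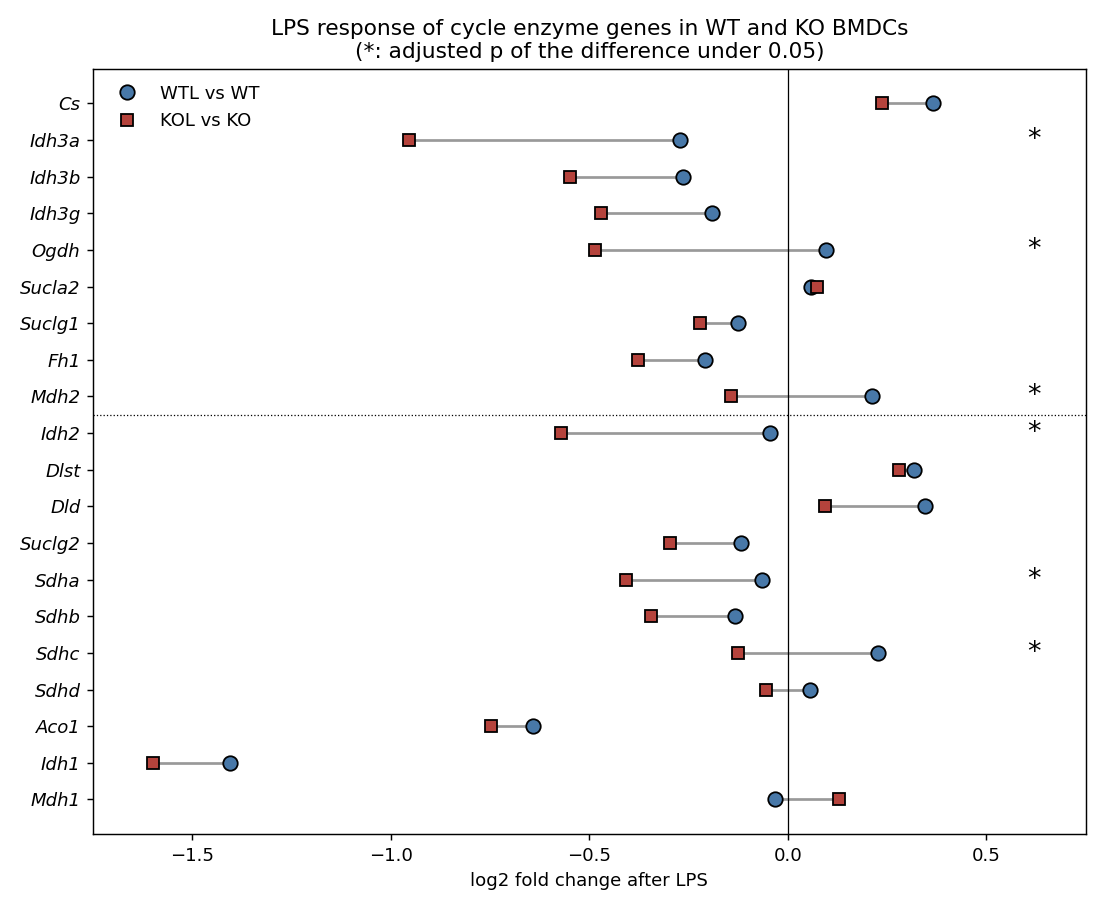
Log2 fold change after LPS (x axis) in WT (WTL vs WT, blue circles) and KO (KOL vs KO, red squares) for the 9 genes above the dotted line and 11 other enzymes of the cycle or their cytosolic forms below it, with a star where the adjusted p of the difference is under 0.05. Idh3a, Ogdh, Mdh2, Idh2, Sdha and Sdhc carry a star, and in each the square lies to the left of the circle.

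The ratio between the subunit genes of an enzyme was followed in TPM. Idh3b was 3.5 ± 0.50 times Idh3a in WT (2.99, 3.99 and 3.52 in the 3 libraries) and 2.56 ± 0.06 times in KO (2.62, 2.55 and 2.495). All 3 KO ratios were below the WT ratios, and after LPS the ratio was 3.32 ± 0.12 in WTL and 3.09 ± 0.43 in KOL. Idh3g was 3.36 ± 0.37 times Idh3a in WT, 2.38 ± 0.14 in KO, 3.38 ± 0.23 in WTL and 3.07 ± 0.37 in KOL. The GDP-forming beta subunit gene Suclg2 was at 0.135 ± 0.015 times Sucla2 in WT and 0.0985 ± 0.0024 in KO, 0.142 ± 0.009 in WTL and 0.109 ± 0.006 in KOL. Each of the 3 ratios was lower in KO than in WT with p = 0.10 in a two-sided exact permutation test of 3 libraries against 3, the smallest p that this design allows (adjusted p = 0.171 over the 12 tests made), so the tests cannot pass 0.05.

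The transcript length that RSEM assigns to a gene is a mean over its isoforms weighted by their estimated abundance. For Cs it was 2926 bases in every library. For Fh1 it was 2325 ± 129 bases in WT and 2283 ± 143 in KO, compared with 1747 ± 208 in WTL and 1859 ± 528 in KOL. The WTL libraries of Fh1 (1508 to 1890 bases) were all below the WT libraries (2181 to 2429 bases), and in KOL replicates 1 and 3 were at 1512 and 1598 bases and replicate 2 at 2466. TPM divides by this length, which bears on Fh1: its log2 fold change in WTL against WT was -0.21 on counts and 0.27 (adjusted p = 0.23) on TPM scaled to a common median. For Suclg1 the length was 1380 ± 43.5 bases in WT and 1328 ± 22.6 in KO, 1505 ± 29.9 in WTL and 1437 ± 52.3 in KOL. The isoform mix behind these lengths is an estimate of RSEM and was not tested.

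A list of 11 other genes for enzymes of the cycle and their cytosolic forms was tested in full. In KO against WT, 7 were higher and 1 was lower, where 22.2% of all genes tested were called higher and 22.4% lower. The median log2 fold change of the 11 was 0.31. The higher genes included Idh2, which encodes the NADP-dependent mitochondrial isocitrate dehydrogenase (0.73, adjusted p = 4.2e-06). All 4 succinate dehydrogenase genes were higher, Sdha (0.55, adjusted p = 5.3e-06), Sdhb (0.41, adjusted p = 0.00016), Sdhc (0.31, adjusted p = 0.0014) and Sdhd (0.42, adjusted p = 0.0013). The other 2 were Idh1, cytosolic isocitrate dehydrogenase (0.56, adjusted p = 4.4e-06), and Dlst (0.20, adjusted p = 0.023), which encodes the transferase that works with Ogdh. Suclg2 was lower (-0.26, adjusted p = 0.0482), a call that was kept in 8 of 22 alternatives, and Dld, the shared dehydrogenase component (0.08), cytosolic aconitase Aco1 (0.05) and cytosolic malate dehydrogenase Mdh1 (0.02) did not pass. Across the alternatives, 5 to 7 of the 11 genes were called higher, the lowest count being that of limma on unscaled TPM, and Dlst kept its call in 13 of 22.

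After LPS in WT, 3 of these 11 genes were higher and 2 lower, where 30.0% of all genes tested were higher and 30.2% lower. Relative to the median gene, Dlst (0.32), Dld (0.35) and Sdhc (0.23) were higher, and Idh1 (-1.41) and Aco1 (-0.64) lower. In KO, 1 was higher and 6 were lower, where 33.6% of all genes tested were higher and 33.9% lower. Dlst (0.28) was the higher gene. The lower genes were Idh1 (-1.60), Aco1 (-0.75), Idh2 (-0.57), Sdha (-0.41), Sdhb (-0.34) and Suclg2 (-0.30). The counts in WT were 1 higher and 3 lower without WT replicate 2, 2 and 3 without WT replicate 1 or 3, 2 and 2 without a filter or on TPM scaled to a common median, and 2 and 4 with upper-quartile scaling, under which those in KO were 0 and 7. With limma on log2(TPM + 1), 1710 of 13435 genes were called higher and 7544 lower in WT, and 2245 and 6935 in KO. With limma on unscaled TPM, 0 of the 11 genes were higher and 10 lower in each genotype. The signs of Dlst, Dld and Sdhc turned (-0.25, -0.20 and -0.26 at the lowest in WT). Idh1 had a mean normalized count of 3036 in WT, 1146 in WTL, 4464 in KO and 1473 in KOL, and its fall was the only one past 2-fold in both genotypes among these 11 genes and the 9. Between KOL and WTL, Sdha (0.21), Sdhb (0.20), Sdhd (0.31) and Idh1 (0.36) were higher and Suclg2 was lower (-0.44). That made 4 higher and 1 lower, where 21.4% of all genes tested were called higher and 23.3% lower. These counts were 3 and 0 with limma on unscaled TPM and 7 and 0 on TPM scaled to a common median. In the edgeR and DESeq2 alternatives the number lower was 1 throughout, and the number higher was 1 in edgeR fitted to these 6 libraries, 2 without KOL replicate 3 or without a filter, and 7 without any 1 of the 3 WT replicates or with at least 10 counts in every library. Without any 1 WT replicate the median of all genes was 0 in this comparison, against -0.03 with all libraries. The interaction passed in Idh2 (-0.53, adjusted p = 0.0066), Sdha (-0.34, adjusted p = 0.016) and Sdhc (-0.35, adjusted p = 0.017). These 3 were all below 0, where 8.75% of all genes tested were called lower and 8.70% higher. This count was 0 to 1 with limma on unscaled TPM, and 1 on TPM scaled to a common median, without a filter on low counts or without any 1 of WT replicates 1 to 3. Idh2 kept its call in 20 of 21 alternatives, Sdhc in 14 and Sdha in 12.

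Genes that feed the cycle from pyruvate were mixed. Of 13 listed genes 12 were tested, without Pdk4. In KO against WT 5 were higher and 4 lower, where 22.2% of all genes tested were called higher and 22.4% lower. With limma on log2(TPM + 1) the counts were 2 and 4. Pdk1 and Pdk2 encode kinases that switch pyruvate dehydrogenase off. Pdk1 had a mean normalized count of 416.9 in WT and 204.1 in KO (log2 fold change -1.03, adjusted p = 9.5e-08) and Pdk2 of 97.58 and 63.21 (-0.63, adjusted p = 0.015). Mpc2, part of the mitochondrial pyruvate carrier, was higher in KO (0.63, adjusted p = 0.00037). After LPS, Pdk2 (-1.57 in WT and -1.87 in KO) and Pdk1 (-0.66 and -0.94) were lower in both genotypes. In WT, 1 of the 12 was higher and 2 lower, where 30.0% of all genes tested were higher and 30.2% lower. In KO, 2 were higher and 7 lower, where the shares of all genes tested were 33.6% and 33.9%. On unscaled log2(TPM + 1), 1710 of 13435 genes were called higher and 7544 lower in WT, and 2245 and 6935 in KO. The counts of the list on that scale were 0 and 11 in WT and 0 and 9 in KO. In WT they were 2 and 3 without KOL replicate 2 or WTL replicate 1, and 1 and 4 with upper-quartile scaling. Between KOL and WTL 3 were higher and 5 lower, where 21.4% of all genes tested were called higher and 23.3% lower. The lower genes included Pdk1 (-1.31, adjusted p = 3.8e-08) and Pcx (-1.01, adjusted p = 7.1e-05), which encodes pyruvate carboxylase.

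Genes of enzymes and carriers that branch from the cycle did not share its pattern. Of 11 genes, 1 was higher and 5 lower in KO than in WT, where 22.2% of all genes tested were called higher and 22.4% lower. The median log2 fold change of the 11 was -0.27. Got2, the mitochondrial aspartate aminotransferase, had a mean normalized count of 1563 in WT and 213.9 in KO (-2.87, SE 0.08, adjusted p = 1.1e-11), and of 1759 in WTL and 366.7 in KOL (-2.26, adjusted p = 8.2e-11). Slc25a1, the mitochondrial citrate carrier, had 448.7 in WT and 188.3 in KO (-1.25, adjusted p = 6.6e-05), and rose after LPS in both genotypes (0.98 in WT and 1.57 in KO). Acod1, which makes itaconate from the aconitate of the cycle, had 5994 in WT, 66370 in WTL, 2952 in KO and 32370 in KOL. It rose by a log2 fold change of 3.47 in WT and 3.46 in KO, and was lower in KO by a like amount at rest (-1.02) and after LPS (-1.04). After LPS, 5 genes of this list were higher and 2 lower in WT, and 6 higher and 1 lower in KO. The shares of all genes tested were 30.0% and 30.2% in WT, and 33.6% and 33.9% in KO. On unscaled log2(TPM + 1), 1710 of 13435 genes were called higher and 7544 lower in WT, and 2245 and 6935 in KO. The counts of the list on that scale were 1 and 7 in WT and 3 and 5 in KO. On counts, the number higher in WT was 3 without WT replicate 1 or WT replicate 2.

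The genes most like the 9 in pattern were found by the Pearson correlation over the 12 libraries with the mean standardized log2 normalized count of the 9, among 9329 genes with at least 100 normalized counts on average. This mean was 0.85 to 1.06 in KO and -0.50 to -0.07 in every other library. The highest correlations were those of Gm28037 (0.986), Sdha (0.976), Unc93b1 (0.974), Kdelr2 (0.974) and Ndufa10 (0.971), which encodes a subunit of respiratory complex I, and 86 genes reached 0.9. Gm28037 was at 0 in WT and WTL, at 1.42 in KOL and at 1616 normalized counts in KO on average. It shares exons with Rpl24 and Zbtb11, so its count is uncertain. The 12 libraries fall into 4 groups, so the points of these correlations are not independent. Among the 9 genes, each against the mean of the other 8, Idh3a (0.862) and Fh1 (0.856) followed the others most closely and Suclg1 (0.778), Mdh2 (0.679), Idh3g (0.578), Ogdh (0.539) and Idh3b (0.501) less so, while Sucla2 (-0.188) and Cs (-0.268) did not follow them.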

How the data were processed

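RNA-seq of 12 libraries in 4 groups of 3 was analysed, with groups and replicate numbers taken from the sample labels. After Trim Galore, the authors aligned reads to mm10 using STAR (2.5.1 in the submitters' processing notes) and quantified genes with RSEM. They deposited an expected count for each gene, which can be fractional, its TPM, which keeps no depth, and the weighted transcript length. The FPKM that the authors deposited was not used. The study's methods name poly(A) selection with a stranded kit and the labels name depletion of ribosomal RNA, and whether RSEM used the strand is not given in the sources used here, so reads from antisense genes cannot be told apart.

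Expected counts were rounded, filtered with filterByExpr by group, normalized with TMM and tested with edgeR 4.0.16 (R 4.3.3), glmQLFit and glmQLFTest, in 1 fit of all libraries without covariates. P-values were adjusted over 14008 genes (Benjamini-Hochberg, threshold 0.05). Errors are SDs over 3 replicates. Ratios were compared with exact permutation tests (scipy 1.17.1). Libraries held 12769773 to 16586334 expected counts. Alternatives were DESeq2 1.42.0, its size factors, upper-quartile scaling, no filter, a minimum of 10 counts in all libraries, the 6 libraries of a comparison, the replicate block, leaving out each library, fold cutoffs, and limma 3.58.1 on log2 TPM with a pseudocount of 1 or 0.1, where 3 libraries had a TPM of 1 or more. TPM scaled to a common median was added after seeing the data. Methods were tested on simulated data. Coordinates are those of GENCODE M21 on mm10. Tables and figures were made with Python 3.11.15, pandas 2.3.3, numpy 2.4.6 and matplotlib 3.10.9.

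The 9 genes, the other lists and the markers were chosen with earlier results of these data known. The named genes were all 9, the 11 other cycle enzymes, the called genes with the 3 largest absolute log2 fold changes per comparison among pyruvate entry genes and branches (the largest of them are printed), the 5 genes most like the 9, and Ctcf. An item that the list of other cycle enzymes first held is not reported here.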

Additional observations from a re-analysis of the deposited data

Results flagged for a closer look

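The response to LPS differed between KO and WT, by a test of the difference itself, in 3 of the 9 genes, all lower. Of all genes tested, 8.75% were called lower and 8.70% higher by this test. The log2 difference was -0.68 for Idh3a, -0.58 for Ogdh and -0.36 for Mdh2. For Idh3a and Ogdh the adjusted p was under 0.05 in all 21 alternatives (differences of -0.74 to -0.54 and of -0.63 to -0.47). For Mdh2 it was under 0.05 in 8 of 21 (-0.41 to -0.25). Idh3a fell in both genotypes. Ogdh fell in KO, and its log2 fold change in WT was 0.10 with a 95% confidence interval of -0.06 to 0.25. The summed normalized count of the monocyte and macrophage markers ranged over 34710 to 35840 in KO, 12790 to 18310 in KOL, 24700 to 26340 in WT and 15440 to 22080 in WTL. The members of that list did not move as 1. In KOL against KO, Csf1r had a log2 fold change of -2.04, Fcgr1 of 1.71 and Mertk of -0.02, and the mean normalized count of Adgre1 was 2099 in KOL and 981.2 in KO. Their part in the difference was not tested.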

How the results depend on the processing

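In KO against WT the number of genes higher was 3 with limma on log2(TPM + 1) and on log2(TPM + 0.1), and 4 to 8 with each library left out, against 6. In WTL against WT the number higher was 1 with the 6 libraries alone, with no filter and with upper-quartile scaling, 0 with either TPM pseudocount and 0 with the fold cutoff, and 1 to 2 with each library left out, against 2. The number lower was 2 with DESeq2 size factors, with no filter and with TPM scaled to a common median, 8 with either TPM pseudocount, 0 with the fold cutoff and 0 to 5 with each library left out, against 4. In KOL against WTL the number higher was 1 with all 3 TPM fits and 0 with the fold cutoff, against 2, and the number lower was 0 with the 6 libraries alone and with the fold cutoff and 1 to 2 with each library left out, against 1. In KOL against KO the number higher was 0 with either TPM pseudocount, with upper-quartile scaling and with the fold cutoff and 1 to 2 with each library left out, against 1, and the number lower was 0 with the fold cutoff, against 6. The interaction was lower in 2 to 5 genes with each library left out, against 3. Values with the opposite sign on log2(TPM + 0.1) and log2(TPM + 1) were, after LPS in WT, Cs (-0.16 on both), Ogdh (-0.46 and -0.45), Sucla2 (-0.55 and -0.54) and Mdh2 (-0.31 on both), and after LPS in KO, Cs (-0.22 on both) and Sucla2 (-0.53 and -0.51). Unscaled TPM moved the median of all genes by -0.44 and -0.38 in these comparisons, and upper-quartile scaling by -0.15. With limma on log2(TPM + 1), 13435 genes were in the fit. Those called higher and lower were 1807 and 3151 in KO against WT and 1710 and 7544 in WTL against WT. They were 2036 and 2617 in KOL against WTL and 2245 and 6935 in KOL against KO. On TPM scaled to a common median Fh1 had 0.27 after LPS in WT and 0.02 in KO. Leaving out any 1 WT library also moved the median of all genes. It became -0.1 or -0.09 in WTL against WT (-0.02 with all libraries) and -0.05 or -0.04 in KO against WT (-0.01). It became 0 in KOL against WTL (-0.03) and 0.05 in the interaction (-0.02). The part of this shift in the calls that changed without a WT library was not tested, nor was the cause of the other changes.

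Same-numbered libraries of different groups did not deviate together (r of -0.29 to 0.11 over 18 pairs, mean -0.031). These deviations were taken from means of 3 libraries. They cannot show whether same-numbered libraries came from the same mouse or culture. With the replicate block the counts higher and lower were 6 and 0 in KO against WT, 2 and 3 in WTL against WT, 2 and 1 in KOL against WTL, 1 and 6 in KOL against KO, and 0 and 2 for the interaction.

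With 3 libraries per group, the differences of Idh3b (0.19, SE 0.10) and Idh3g (0.20, SE 0.08) in KO against WT were short of the threshold or at it. Cs, with a difference of like size (0.19) and a smaller SE (0.06), was called. Without KOL replicate 2, which stood apart, 8 of the 9 genes were called in KO against WT. The calls over all genes also rose, from 3110 higher and 3131 lower of 14008 to 3493 and 3480 of 14378.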
